A study of Homo sapiens with 15 samples.

Results

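The glutathione and NRF2 defence genes are 44 genes that make, recycle and use glutathione, remove peroxides and superoxide, or carry the NRF2 response. They were chosen by name, as glutathione, peroxiredoxin and NRF2 pathway genes, and not by any measured value. Earlier results of these data were known when they were chosen. All 44 were found among the 58302 genes of the tables. RNA-seq libraries were labelled for 5 groups, and the 3 libraries of C4-2B cells were analysed here, while the DKD and ER libraries with scrambled or Pax5 siRNA were not used. C4-2B is an established human prostate adenocarcinoma line derived from LNCaP. The labels call it wild type, name no treatment, and put it in RPMI medium with fetal bovine serum, glutamine and antibiotics. In the study it is the parent of an enzalutamide-resistant line with neuroendocrine features. With 1 group there was no condition to compare, and the levels of the 44 genes, their order and their spread between libraries are what these data show.

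Glutathione is a small thiol peptide that is assembled from cysteine in steps catalysed by glutamate-cysteine ligase and glutathione synthetase, and cysteine enters the cell largely as cystine. Glutathione transferases (GST) join it to electrophiles, glutathione peroxidases (GPX) spend it on peroxides, and peroxiredoxins (PRDX) do related work with electrons from thioredoxin. The transcription factor NRF2, encoded by NFE2L2, is held at a low level by KEAP1 and, once released by oxidants or electrophiles, raises many of these genes through antioxidant response elements. GSTP1, the pi-class transferase, is commonly silenced in prostate cancer.

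The 3 libraries held 44992971, 49569026 and 46232076 counted reads. The labelled cell type was checked against its markers. The luminal prostate genes KLK3, KLK2, TMPRSS2, KRT8 and KRT18 had mean levels between 197 and 1988 TPM, the unit in which reads per base of exon are scaled to the same sum in every library. The basal genes KRT5, KRT14 and KRT15 had means of at most 0.865 TPM, and CHGA, SYP and NCAM1 of neuroendocrine cells means of at most 1.38 TPM. The leukocyte genes PTPRC and CD3E had at most 4 counts in a library. Of the fibroblast genes, COL1A2 and DCN had 0 counts while COL1A1 was at 7.09 TPM, and of the endothelial genes PECAM1 had at most 6 counts while VWF was at 2.91 TPM. The study calls its experiments in general independent replicates, but the labels name no separate cultures for these libraries, so the spread between them may be technical.

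Most of the genes were expressed at high levels. In all 3 libraries 36 of the 44 reached 1 TPM, where 61.2% of the 19709 protein-coding genes did so. Their median level was 43.9 TPM, against 5.88 TPM for all protein-coding genes, and 19 of the 44 stood in the top 10% of protein-coding genes. Together they made up 5153 ± 38.3 TPM (SD, n = 3), or 0.515% of all TPM. The transferases stood apart within the list, with 9 of the 15 other than GSTP1 at 1 TPM or more and GSTP1 itself below it, whereas 27 of the 28 remaining genes reached that level. Of the 8 genes that did not reach 1 TPM in every library, 7 were transferases (GSTP1, GSTA2, GSTM1, GSTM2, GSTM4, GSTM5 and GSTO2) and the other was the peroxidase GPX7. When the 44 levels were put in order, the library values of 18 of the 43 neighbouring pairs overlapped.

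**Figure D1:**
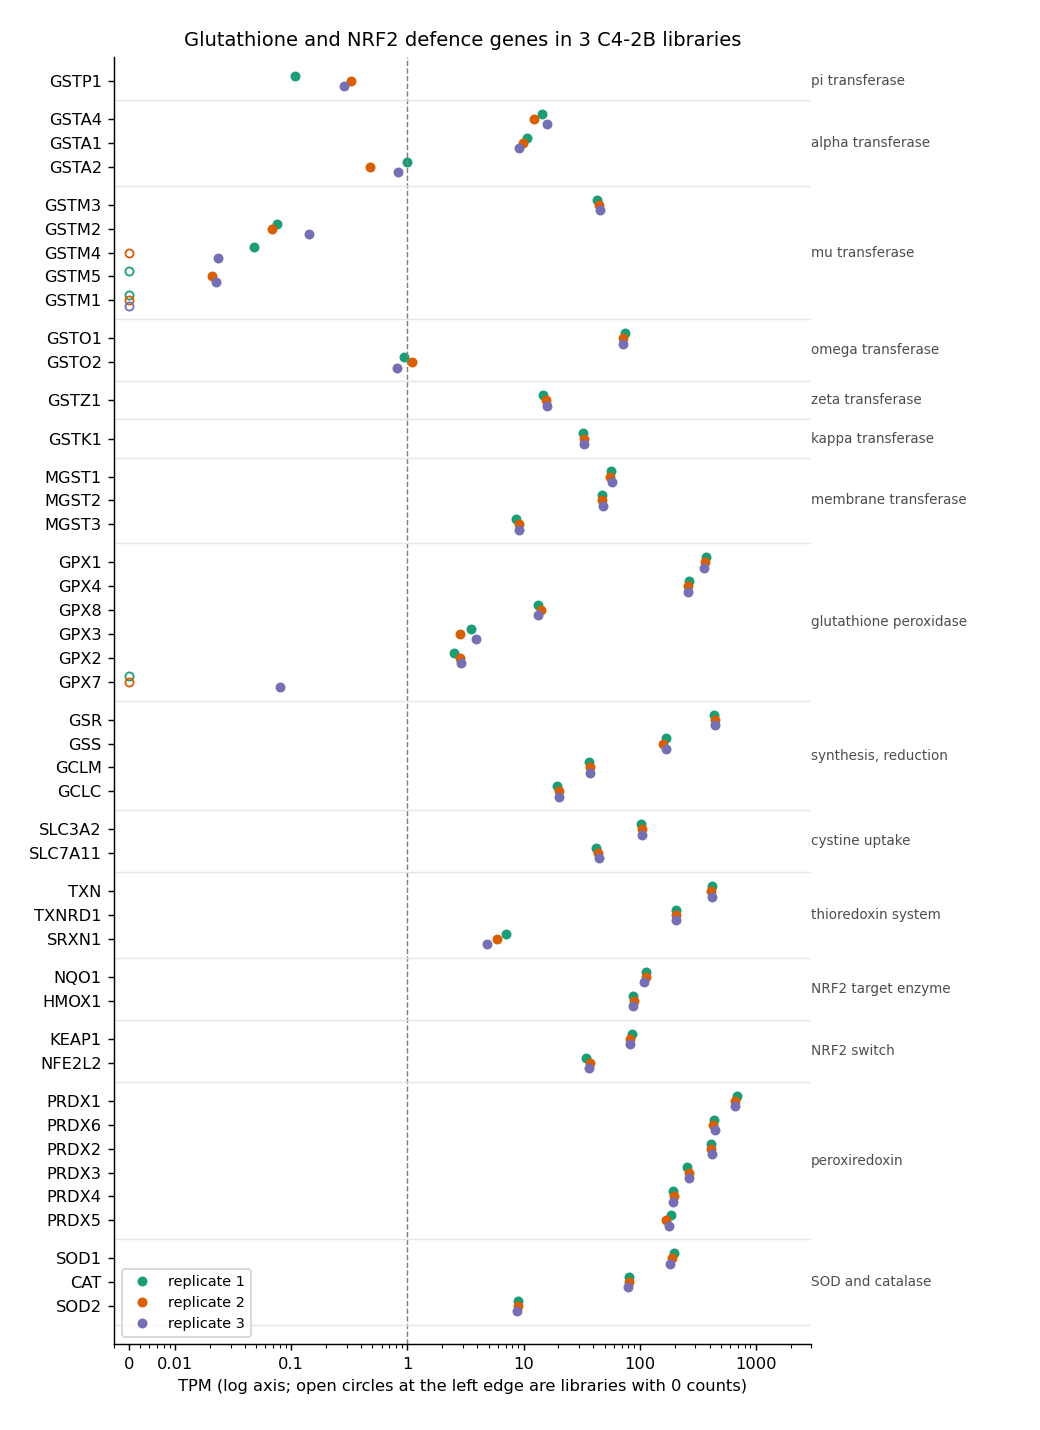
Level of each of the 44 genes in the 3 C4-2B libraries, in TPM on a log axis, grouped by role; each point is a library and the dashed line marks 1 TPM. The peroxiredoxins lie between 169 and 692 TPM, while GSTP1 and 4 of the 5 mu-class transferases lie left of 0.4 TPM in every library.

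GSTP1 was nearly silent in these cells. The gene (ENSG00000084207) lies at 67583595 to 67586660 on the plus strand of chromosome 11 in GRCh38. It had 3, 10 and 8 counts in replicates 1 to 3, which are 0.108, 0.328 and 0.283 TPM. Replicate 1 was lowest, and all 3 libraries stayed far under 1 TPM. The mean was 0.240 ± 0.116 TPM (SD, n = 3), and the exact Poisson 95% interval of the summed 21 counts spans 13.0 to 32.1 counts, or 0.150 to 0.371 TPM. This interval covers counting error only and is too narrow, because mates of a read pair were counted separately. No exon base of GSTP1 lies under an exon of another gene, and none of its stretches of 50 bases occurs elsewhere in the genome, so neither overlap nor shared sequence of that length took reads from it. In bulk RNA, a transcript present in few cells and a low level in every cell cannot be told apart.

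The promoter of GSTP1 is shown because its silencing in this cancer is well known, and that of the mu-class gene GSTM3 because it stands at the other end of CpG content with a much higher level. Both windows run from 250 bases before to 50 bases after the annotated start in RefSeq (GRCh38.p14), on the strand of the gene, with each CpG in capitals. The GSTP1 window is chr11:67583562-67583861 on the plus strand and the GSTM3 window is chr1:109740989-109741288 on the minus strand.
GSTP1: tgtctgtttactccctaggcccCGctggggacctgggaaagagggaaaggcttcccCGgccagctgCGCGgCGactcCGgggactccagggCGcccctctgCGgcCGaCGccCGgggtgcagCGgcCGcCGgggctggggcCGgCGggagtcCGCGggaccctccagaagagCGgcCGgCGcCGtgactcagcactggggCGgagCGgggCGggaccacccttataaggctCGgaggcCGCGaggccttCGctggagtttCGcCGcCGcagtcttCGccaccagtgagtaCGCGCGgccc
GSTM3: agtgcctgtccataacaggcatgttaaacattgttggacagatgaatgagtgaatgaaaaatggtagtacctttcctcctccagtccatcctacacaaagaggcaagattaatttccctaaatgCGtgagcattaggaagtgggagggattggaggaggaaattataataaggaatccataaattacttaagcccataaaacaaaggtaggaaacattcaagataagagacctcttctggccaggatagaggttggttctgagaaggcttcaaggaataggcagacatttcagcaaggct
The GSTP1 window holds 36 CpG, more than 87.3% of the 35116 windows of the promoter table, at 74% G and C and an observed to expected CpG ratio of 0.879. The GSTM3 window holds 1 CpG, at 41.3% G and C and a ratio of 0.0806. The gene with the CpG-rich window was at 0.240 TPM and the gene with the CpG-poor one at 44.3 TPM. Other genes of the list were the opposite of this pair. GSTA2 also had 1 CpG and was at 0.767 TPM, while PRDX2 had 46 CpG and was at 414 TPM. Neither DNA methylation of GSTP1 or GSTM3 nor the start site that these cells use was analysed here.

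**Figure D2:**
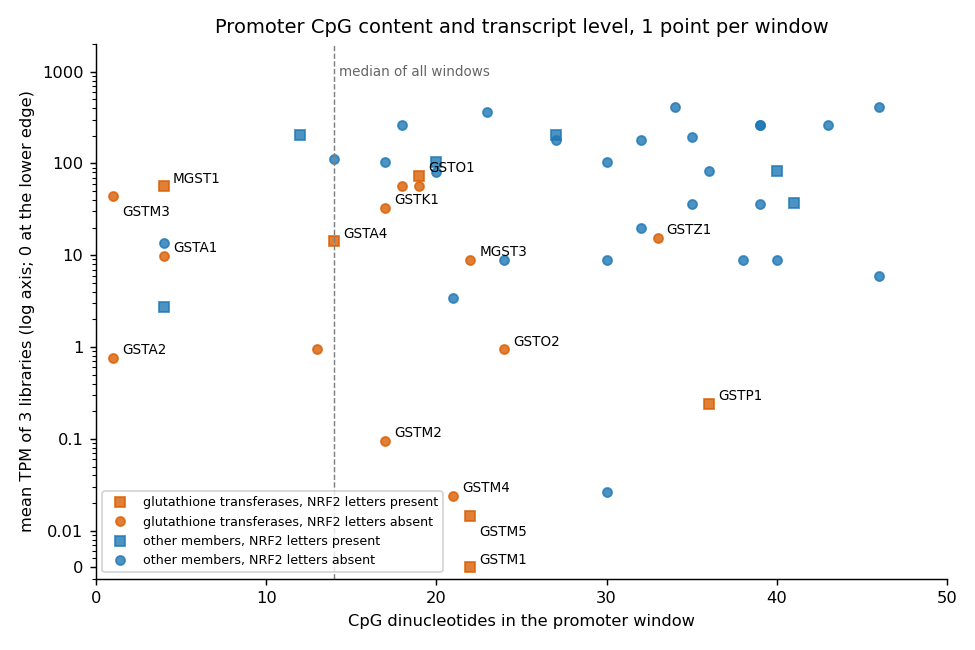
CpG dinucleotides in each RefSeq promoter window (x axis) and mean level in TPM over 3 libraries (y axis, log scale) for the 36 genes with a window; several windows of 1 gene share a level, squares hold the NRF2 letters TGACNNNGC and the dashed line is the median of all windows. GSTP1, with 36 CpG, is at 0.240 TPM, while KEAP1 has a window with the same number and is at 83.7 TPM.

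Among the other transferases, 11 of 15 were higher in TPM than GSTP1 in every library and 4, all of the mu class, were lower in every library. For GSTM2 this depends on length. It had 10, 10 and 19 counts against 3, 10 and 8 for GSTP1, on 9116 exon bases against 1915. In CPM, the read count scaled to the library total with no division by length, GSTM2 was at 0.278 and GSTP1 at 0.147. GSTO1, the highest, was 697, 221 and 255 times GSTP1 in the 3 libraries, and 306 times by the means, with 197 to 488 from the counting interval of GSTP1 alone. The 16 transferases summed to 305 ± 3.74 TPM (SD, n = 3). The membrane-bound microsomal class gave 37.0% ± 0.341 of that sum, the omega class 24.3% ± 0.749, the mu class 14.5% ± 0.338, the kappa class 10.8% ± 0.176, the alpha class 8.14% ± 0.573 and the zeta class 5.04% ± 0.180 (SD, n = 3 each). The pi class, GSTP1, gave 0.0355%, 0.109% and 0.0914% in the 3 libraries, or 0.0785% ± 0.0383. The order of the classes was the same in each library, and no neighbouring classes overlapped. The order of the classes depends on length. In CPM the mu class (16.2%) and the kappa class (10.7%) stood above the omega class (10.2%), and the zeta class (9.99%) above the alpha class (3.21%). An exact test of 3 paired libraries cannot reach a p below 0.25, so no test between classes was made.

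**Figure D3:**
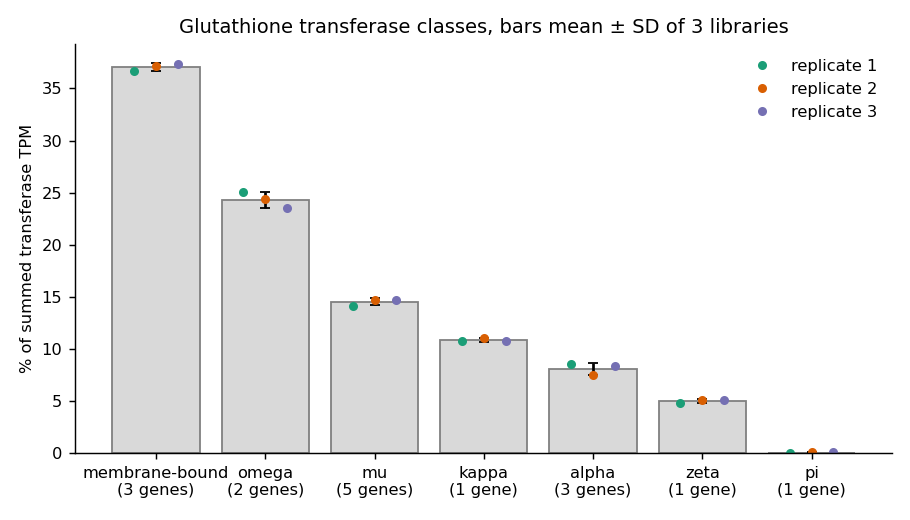
Share of each transferase class in the summed TPM of the 16 transferases, in percent; bars are the mean of 3 libraries, error bars the SD and points the libraries. The membrane-bound class stands at 37.0% and the pi class, at 0.0785%, cannot be seen above the axis.

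The membrane-bound enzymes MGST1 and MGST2, relatives of the enzymes of leukotriene synthesis, carried most of their class. MGST1 was at 56.3, 55.8 and 57.8 TPM and MGST2 at 47.0, 47.1 and 48.7 TPM, and these did not overlap. MGST3 was lower, at 8.59, 9.22 and 9.08 TPM. In the omega class, whose enzymes reduce rather than conjugate, nearly all of the level was GSTO1, with 75.3, 72.4 and 72.0 TPM. Its neighbour GSTO2 was at 0.932, 1.10 and 0.819 TPM, which makes GSTO1 higher by 78.3 ± 11.1 times (SD, n = 3). That ratio was 13.3 ± 1.89 in CPM, since the exons of GSTO2 cover 9921 bases against 1691 of GSTO1. GSTZ1, which also serves tyrosine breakdown, was at 15.4 ± 0.601 TPM and the mitochondrial and peroxisomal GSTK1 at 33.1 ± 0.333 TPM (SD, n = 3 each).

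In the mu class GSTM3 alone was expressed. It had 2962, 3359 and 3186 counts, or 43.0, 44.4 and 45.4 TPM. GSTM2 had 10, 10 and 19 counts, GSTM4 had 4, 0 and 2, GSTM5 had 0, 2 and 2, and GSTM1 had 0 counts in every library, where 3 counts over the libraries would be 0.0264 TPM. The GSTM3 level was 348, 495 and 243 times the other 4 together. These 5 genes sit in 1 cluster on chromosome 1, in which GSTM4, GSTM2, GSTM1 and GSTM5 are read on the plus strand and GSTM3, inside the span annotated for GSTM5, on the minus strand. The low values carry a limit, because 39.1% of the 50-base stretches of GSTM1, 29.03% of those of GSTM2, 12.6% of those of GSTM4 and 11.7% of those of GSTM5 also occur elsewhere, and reads with several places were not counted. For GSTM3 that share was 5.08%. In addition 38.3% of the exon bases of GSTM1 lie under exons of GSTM2 or of an opposite-strand RNA.

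The alpha class showed a graded pattern. GSTA4, which acts on the lipid peroxidation product hydroxynonenal, was at 14.3, 12.3 and 16.0 TPM. GSTA1 was at 10.7, 9.80 and 9.17 TPM, below GSTA4 in each library. GSTA2 had 19, 10 and 16 counts, or 0.998, 0.478 and 0.825 TPM. The split between GSTA1 and GSTA2 is uncertain, since 29.1% and 19.5% of their 50-base stretches occur elsewhere, most of these in each other. GSTA4 had no such stretch, so the place of GSTA1 below GSTA4 carries the same limit. All 3 are read on the minus strand of chromosome 6, over a span of 245 kb.

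**Figure D4:**
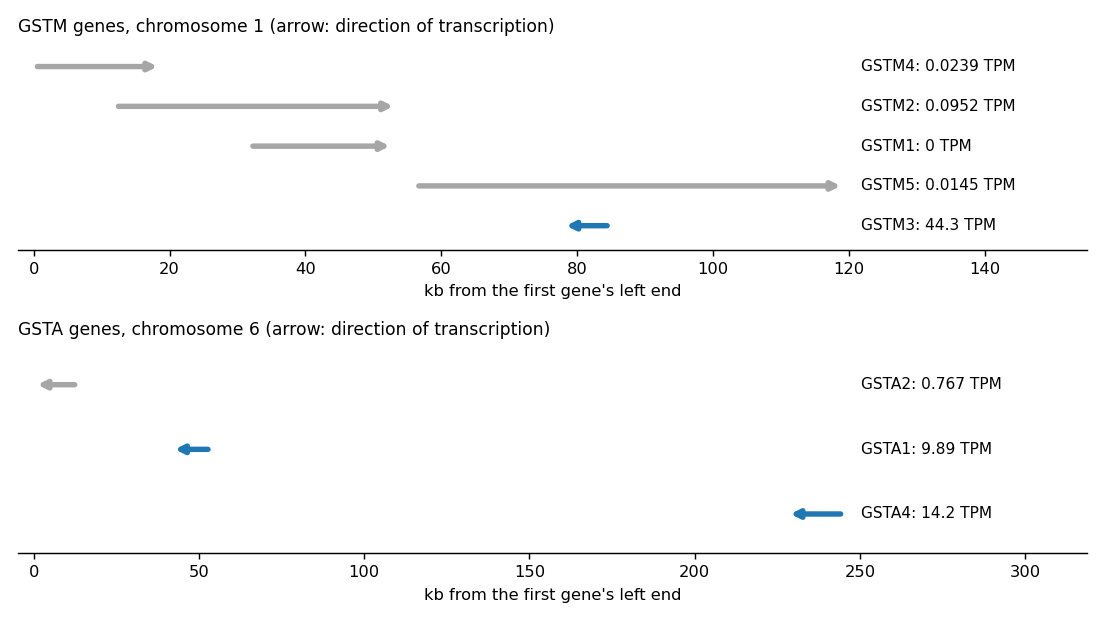
Position of the mu-class and alpha-class genes in kb from the left end of each cluster, with arrows in the direction of transcription and the mean TPM of 3 libraries beside each; blue marks a mean of 1 TPM or more. GSTM3, at 44.3 TPM, lies within the span of GSTM5, at 0.0145 TPM, on the other strand.

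The glutathione peroxidases were led by GPX1 and GPX4, with 56.4% ± 0.512 and 40.5% ± 0.398 of their summed 648 ± 10.5 TPM (SD, n = 3). GPX1, the cytosolic selenoenzyme, was at 375, 364 and 357 TPM. GPX4, which removes lipid hydroperoxides and restrains ferroptosis, was at 264, 263 and 261 TPM, below GPX1 in each library. Of the 50-base stretches of GPX1, 18.0% occur elsewhere, mainly in its pseudogene GPX1P1, so its count is if anything too low. GPX8, an enzyme of the endoplasmic reticulum, was at 13.6 ± 0.504 TPM, the secreted GPX3 at 3.43 ± 0.539 TPM and the gut enzyme GPX2 at 2.76 ± 0.197 TPM (SD, n = 3 each). GPX7 had 0, 0 and 2 counts.

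Glutathione synthesis was expressed throughout. GCLC, the catalytic subunit of glutamate-cysteine ligase, was at 19.4, 20.3 and 20.1 TPM, and GCLM, its modifier subunit, at 36.3, 37.6 and 37.4 TPM. The ratio of GCLM to GCLC was nearly the same in the libraries, at 1.87, 1.85 and 1.86. Its size depends on length, with 1.19 ± 0.00593 in CPM (SD, n = 3). Glutathione synthetase, GSS, was higher at 168, 159 and 169 TPM. Glutathione reductase, GSR, which returns oxidised glutathione with NADPH, was at 441, 442 and 444 TPM. By mean TPM it was the second most abundant of all 44 genes, with values that overlapped those of PRDX6. In CPM it stood first, at 459. With only exon bases outside other genes as length, PRDX2 at 460 TPM stood above GSR at 421 TPM. GSR had the smallest spread of those tested, 0.005 on the log2 scale between the highest and lowest library. Of the cystine carrier, the transport subunit SLC7A11 was at 42.2, 43.6 and 44.5 TPM. Its partner SLC3A2, which also serves other amino acid carriers, was at 102, 104 and 105 TPM. The ratio of SLC3A2 to SLC7A11 was 2.39 ± 0.0361 in TPM and 1.28 ± 0.0194 in CPM (SD, n = 3 each).

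The peroxiredoxins were the most abundant family, with 2160 ± 20.4 TPM in sum (SD, n = 3). PRDX1, the highest of the 44 genes in TPM, was at 692, 664 and 664 TPM, or 31.2% ± 0.554 of the family. Replicate 1 was high and the other two were nearly equal. PRDX6, which uses glutathione in place of thioredoxin, was at 435, 429 and 441 TPM. PRDX2 was at 413, 413 and 416 TPM, below PRDX6 in each library. That order depends on the length used. An opposite-strand RNA covers 14.1% of the exon bases of PRDX2, while no exon of another gene covers PRDX6. With only exon bases outside other genes as length, PRDX2 stood at 460 TPM and PRDX6 at 415 TPM. The mitochondrial PRDX3 was at 264 ± 5.21 TPM, PRDX4 of the endoplasmic reticulum at 194 ± 2.23 TPM and PRDX5, found in several compartments, at 179 ± 8.90 TPM (SD, n = 3 each). The exons of MMACHC, on the opposite strand, cover 24.9% of the exon bases of PRDX1, and reads over both genes were not counted. With only exon bases outside other genes as the length of every gene, PRDX1 would stand at 855 TPM, and its share of the family at 36.6%. In CPM, by contrast, GSR at 459 and TXNRD1 at 444 stood above PRDX1 at 329.

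Thioredoxin, TXN, was at 420, 410 and 421 TPM and its cytosolic reductase TXNRD1 at 206, 205 and 208 TPM. The ratio between them was 2.02 ± 0.0207 in TPM (SD, n = 3), though TXN had fewer reads, 0.344 ± 0.00353 for each read of TXNRD1, since its exons are much shorter. SRXN1, the sulfiredoxin that repairs overoxidised peroxiredoxins, was the lowest of the system, with 276, 252 and 194 counts, or 7.06, 5.87 and 4.87 TPM. That level is a lower limit. A protein-coding gene without a symbol, ENSG00000270299, covers 85.0% of the exon bases of SRXN1 on the same strand and had 12, 10 and 18 counts. With only exon bases outside other genes as the length of every gene, SRXN1 would stand at 37.6 TPM.

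Superoxide dismutase SOD1, of the cytosol, was at 199, 190 and 182 TPM and catalase, CAT, at 81.4, 80.3 and 79.2 TPM. SOD2, the mitochondrial manganese enzyme, was at 8.93, 8.92 and 8.87 TPM. No symbol was paired with the identifier of SOD2, ENSG00000112096, which was matched by its exons, 95.6% of whose bases belong to SOD2 in GENCODE release 44. The table gives SOD2 a length of 18985 exon bases, which lowers its TPM, and 21.7% of its 50-base stretches occur elsewhere. SOD1 stood above CAT and CAT above SOD2 in each library.

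Of the NRF2 switch, NFE2L2 was at 34.3, 37.4 and 36.5 TPM and its inhibitor KEAP1 at 85.7, 82.8 and 82.6 TPM. KEAP1 was higher by 2.32 ± 0.151 times (SD, n = 3), or 1.84 ± 0.119 times with only exon bases outside other genes as length, because exons of other genes, mostly a same-strand RNA, cover 20.9% of the exon bases of NFE2L2. The NRF2 target NQO1, a quinone reductase, was at 113, 114 and 109 TPM. HMOX1, which opens the haem ring and is also raised by many stresses, was at 88.4, 89.7 and 86.9 TPM. An opposite-strand RNA covers 17.7% of the exon bases of NQO1. These levels are transcript levels, and NRF2 activity itself was not measured.

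NRF2 with a small MAF partner binds antioxidant response elements whose core letters are TGACNNNGC. Of the 44 genes, 36 had a window in the promoter table, and the letters stood on either strand in a window of 11 of them, or 30.6%, against 16.1% of all 27305 genes. Counted by window they stood in 12 of 50, or 24%, against 13.4% of 35116. The genes were GCLM, GPX2, GSTA4, GSTM1, GSTM5, GSTO1, GSTP1, KEAP1, MGST1, SLC3A2 and TXNRD1. With 1 more A required after these letters 7 genes remained, or 19.4%, against 3.94% of all genes. The sites of those 7 are shown, read on the strand that spells the letters, which are in capitals.
GSTP1: gcgccgTGACTCAGCactggg
GCLM: agacaaTGACTAAGCagaaat
GPX2: ccaggaTGACTTAGCaaaaac
GSTO1: gagggaTGACTGAGCatttat
KEAP1: tcaccaTGACTAAGCagagcc
MGST1: acatcgTGACAAAGCaaattg
TXNRD1: tcagaaTGACAAAGCagaaat
Positions are counted along the strand of the gene, with the first transcribed base as 0. The most upstream of the capitals lies at -66 in GSTP1, -34 in GCLM, -122 in GPX2, -226 in GSTO1, -31 in KEAP1, 30 in the most upstream window of MGST1 and -102 in the downstream window of TXNRD1. The sites of GCLM, GPX2, KEAP1 and TXNRD1 are printed from the strand opposite to the gene, so there this base is the last capital. The GSTP1 site, at chr11:67583740-67583760, also holds TGACTCA, the AP-1 letters, as does the site of SLC3A2. The genes with these letters ranged from 0 counts in GSTM1 to 206 TPM in TXNRD1, and GSTP1, which has the longer form, was at 0.240 TPM. A match is a description of the sequence and not a bound site. NQO1, GCLC and SRXN1 had no match in these windows, and sequence beyond the windows was not searched. PRDX1, PRDX6, MGST2, HMOX1, SLC7A11, GSR, SOD1 and GSS had no window and were not searched at all.

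The wider pathway was represented by 57 other glutathione and NRF2 genes, of which 56 were matched and 49 reached 1 TPM in all libraries, with a median of 41.6 TPM. Among further transferases and reductases, levels ran from the glutaredoxin GLRX at 5.69 ± 0.479 TPM to the mitochondrial thioredoxin TXN2 at 146 ± 0.830 TPM. Among the genes of glutathione breakdown and export, the transporter ABCC4 was highest at 170 ± 1.90 TPM, while its relative ABCC2 had 5, 16 and 21 counts. All 7 genes of NADPH supply were expressed, from PGLS at 30.5 ± 0.818 TPM to TALDO1, both of the pentose phosphate pathway, at 246 ± 3.002 TPM. Partners and regulators of NRF2 ranged from MAFF at 5.32 ± 0.625 TPM to the related factor NFE2L1 at 133 ± 1.14 TPM (SD, n = 3 for each gene here).

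Other NRF2 targets and related genes, taken as a group, were split. The ferritin light chain FTL was highest, at 501, 543 and 520 TPM, but this place depends on length. FTH1 was at 367 ± 1.80 TPM (SD, n = 3), and exons of BEST1 on the opposite strand cover 62.4% of its exon bases. With only exon bases outside other genes as the length of every gene, FTH1 would stand at 931 TPM and FTL at 497 TPM. Of the 20 genes of this group, 15 were expressed. The 5 that were not were all low in each library. The aldo-keto reductase AKR1C1 had 0, 0 and 3 counts, AKR1B10 had 0, 2 and 2, AKR1C2 had 3, 8 and 8, AKR1C3 had 8, 3 and 10, and the aldehyde dehydrogenase ALDH3A1 had 0, 4 and 0. AKR1C1, AKR1C2 and AKR1C3 are close relatives, and the sequence they share was not measured here. These low targets stood in the same libraries in which NQO1 was at 112 ± 2.68 TPM and GCLM at 37.1 ± 0.708 TPM (SD, n = 3 each).

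The 3 libraries were then compared gene by gene. Each gene with at least 30 counts in sum was tested across them with a chi-square of its counts, which was divided by 2 because each mate of a pair had been counted, with Benjamini-Hochberg adjustment over all genes tested. Of the 39 genes that met the minimum, 0 had an adjusted p under 0.05, against 176 of 22229 genes, or 0.792%. At an unadjusted p under 0.05 there were 6 of 39, against 2503 of all 22229 tested genes. With the chi-square not divided, 8 of 39 passed, or 20.5%, against 17.3% of all, namely GPX1, GSS, GSTA4, NFE2L2, PRDX1, PRDX5, SOD1 and SRXN1. Without replicate 2, SOD1 alone passed, 1 of 38, where 223 of all 20178 genes did. This test compares libraries and not conditions, and the 39 are only the genes with enough counts. Among the 56 other pathway genes, 0 of 51 passed. At an unadjusted p under 0.05 there were 9 of 51, against 2503 of 22229. When the chi-square was not divided, 13 of 51 passed, or 25.5%, against 17.3% of all.

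The median difference between the highest and lowest library was 0.07 on the log2 scale for the 39 genes and 0.20 for all genes tested. Of the 39, 32 stayed under 0.2. The 3 with at least 0.5 were GSTA2 at 1.07, GSTM2 at 1.03 and SRXN1 at 0.55. Of these, the first 2 had at most 19 counts in a library. Genes of high count lay near 0 on this scale, and the medians were not matched for read count. Whether the 39 were steadier between libraries than other genes of similar count was therefore not tested. The adjusted p in the divided chi-square test with Benjamini-Hochberg adjustment was 0.0906 for SOD1, 0.116 for PRDX1, 0.291 for SRXN1 and 0.330 for GSTA4. SOD1 and SRXN1 were highest in replicate 1 and lowest in replicate 3, while GSTA4 was highest in replicate 3 and lowest in replicate 2. By TPM, the highest library was replicate 1 for 12 of the 39, replicate 2 for 10 and replicate 3 for 17. The same count was not made over all tested genes.

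**Figure D5:**
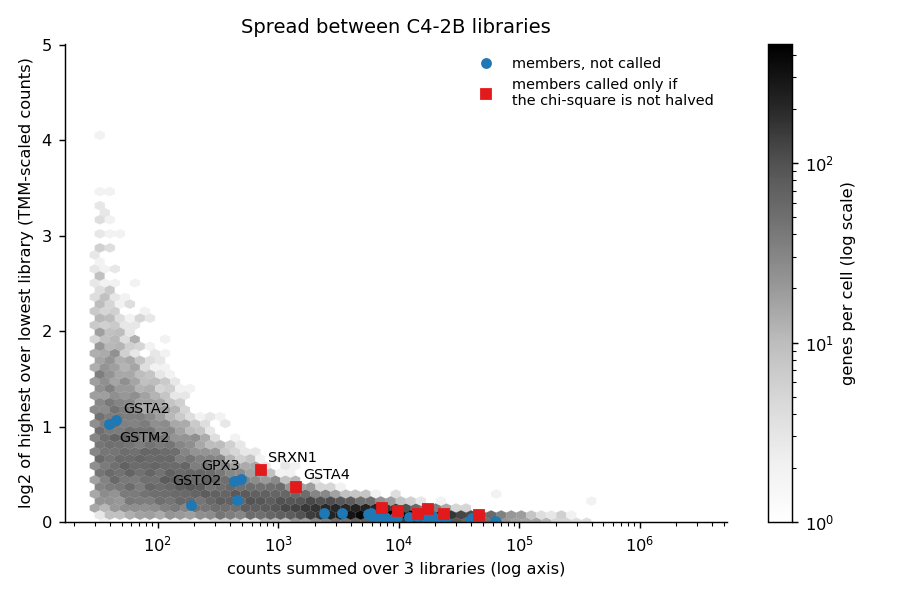
Spread between the 3 libraries (y axis, log2 of the highest over the lowest TMM-scaled count) against the counts summed over libraries (x axis, log scale), with all tested genes in grey and the 39 tested defence genes in colour; genes at 0 in a library are not drawn. Points of high count lie near 0 and GSTA2, at 1.07, is the highest of the 39.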

How the data were processed

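RNA from 3 C4-2B libraries was measured by paired-end RNA-seq after rRNA depletion with a directional kit. Per the file headers and the submitters' processing notes, the authors aligned reads with STAR 2.7.0f to hg38 and made the deposited count per gene with featureCounts of Subread 1.6.3, with no strand set. Mates were counted separately, and reads over several genes or several places were not counted. The deposited gene length, the other value the authors' tables hold and used here, equals the union of exon bases for all 58302 genes. Names were paired by identifier for 57532 genes.

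TPM was computed from counts and lengths over every gene. The groups came from the titles. Library differences were tested with a chi-square on 2 degrees of freedom against TMM sizes (edgeR 4.0.16), divided by 2, with Benjamini-Hochberg adjustment over genes with at least 30 counts, and tested on simulated data. Alternatives used DESeq2 1.42.0 size factors, total counts, other minimums, other lengths, CPM, and each library left out. Intervals are exact Poisson at 95% and cover counting error only. Sequences came from RefSeq promoter windows (GRCh38.p14), and 50-base stretches were sought in the whole genome. Python 3.11.15 and R 4.3.3 were used.

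The 44 genes and all lists were chosen with earlier results of these data known. All 44 were accounted for. GSTP1, the highest and lowest of each family, and the mu and alpha classes were given per library, and further pathway genes where they were highest or lowest of their role or had no counts. The members given per library beyond this rule, the FTH1 level, and the AKR1B10, AKR1C2, AKR1C3 and ALDH3A1 counts were chosen after their values were seen. GSTT1 was not matched and is not analysed here. The study's methods name both featureCounts and StringTie, and the headers featureCounts.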

Additional observations from a re-analysis of the deposited data

How the results depend on the processing

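The count of defence genes that differed between libraries stayed at 0 with DESeq2 size factors, total counts and minimums of 10 and 100 counts or none. It was 8 when the chi-square was not divided by 2, and between 0 and 1 with a library left out, SOD1 being the gene that passed without replicate 2. For the other pathway genes it was 13 when not divided. Over all genes it was 3835 when not divided, and between 38 and 223 with a library left out, the value without replicate 1 being 38 and that without replicate 3 being 44. Those fits have 1 library fewer and tested fewer genes. In CPM, with no division by length, the membrane-bound class held 49.6% of the transferases and the omega class 10.2%, below the mu and kappa classes, PRDX1 held 23.5% of the peroxiredoxins and GPX1 46.6% of the peroxidases. On that scale PRDX6, with 46506 reads in sum against 46297, and GPX4, with 23948 against 23533, stood first in their families. Of all 44 genes, GSR at 459 CPM and TXNRD1 at 444 CPM stood highest. With exon bases outside other genes as length the membrane-bound class held 37.6% and PRDX1 36.6%. On that length PRDX2, at 19.7% of the peroxiredoxins, stood above PRDX6 at 17.7%. The promoter letters with 1 more A were held by 7 genes in place of 11. The number of expressed genes lay between 36 and 37 under every alternative run, and the GSTP1 level in TPM between 0.195 and 0.333, the latter with protein-coding genes alone in the denominator.

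GPX7, GSTM4 and GSTM5 had 6 or fewer counts in sum, and their counting intervals overlap, so differences among these 3 were not detectable at this depth. No paired analysis was possible because libraries of 1 group alone were analysed, so no replicate number was shared between groups.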
